A study of Mus musculus with 2 samples.

Results

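The Rab, Arf and Arl GTPases, the Vps and Sec proteins and the sorting nexins move cargo between the membranes of the cell, and their transcripts were followed here in sheared mouse tendon cells. The genes were chosen by name: a gene was taken if the array annotation gave a probe 1 symbol that starts with Vps, Snx or Sec and a number, or that is Rab, Arf or Arl with a number and at most 1 closing letter. Effectors such as Rab11fip1 are therefore not members. This gave 124 of the 10793 genes measured on at least 1 array, and all 124 were measured on both arrays. They comprise 41 Rab, 4 Arf, 4 Arl, 31 Vps, 22 Snx and 22 Sec genes. The rule itself uses no measured value, though it was drawn up with earlier results of these data known.

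The study asked how mechanical shear affects cells of the mouse flexor tendon. Each spotted array carried 2 colours, with Cy5 on the RNA of sheared cells and Cy3 on that of their controls. One array held pooled cells sheared for 6 h against pooled control cells, and the other held cells sheared at 50 rpm for 12 h against control tenocytes, the fibroblast-like cells of tendon. The labels give no strain, age, passage or culture of the cells, and no shear setting for the 6 h cells. There was 1 array per time and no dye swap, so no difference could be tested, and precision is limited by having so few arrays. Values are log2 ratios after the median of all spots was subtracted from each array (-0.323 at 6 h and -0.479 at 12 h as deposited). The base of 2 is assumed and the direction, sheared over control, is likely but not settled; if it ran the other way, every sign below would turn. The only error is the SD between the probes of a gene, which pooled over all genes was 0.738 at 6 h and 0.855 at 12 h, and over the 81 and 80 members with several probes was 0.598 and 0.535. A change in the number of cells of a type and a change in RNA per cell cannot be told apart. Of 12 tendon markers 7 were measured, with ratios between -0.45 and 0.55 at 6 h and between -0.48 and 0.75 at 12 h. A ratio shows no level, so the labelled cell type could not be checked.

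Proteins bound for secretion, collagens included, enter the endoplasmic reticulum through the Sec61 channel and leave it in vesicles coated by COPII, built from Sec13, Sec31, Sec23 and Sec24. Rab GTPases mark each membrane compartment and recruit motors and tethers, while Arf GTPases recruit the COPI and clathrin coats. Sorting nexins and the Vps complexes retromer, ESCRT, HOPS and GARP then return, degrade or fuse endosomal cargo.

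As a whole the traffic genes lay close to the middle of the arrays. Their median log2 ratio was 0.07 at 6 h and 0.01 at 12 h, against -0.11 and -0.14 over all genes. Without centring both medians were negative, at -0.25 and -0.47, as was that of all genes. The quartiles of the members were -0.40 and 0.54 at 6 h and -0.79 and 0.73 at 12 h. At 6 h, 5 members (4.03%) were higher by at least 2-fold and 14 (11.3%) lower by as much, where 6.19% and 18.9% of all genes were. At 12 h the counts were 19 (15.3%) higher and 23 (18.5%) lower, against 14.5% and 20.5% of all genes. At 1.5-fold, 25 members were higher and 23 lower at 6 h, where 18.2% and 31.3% of all genes were, and 35 were higher and 37 lower at 12 h, where 24.4% and 33.1% were. The shares past 2-fold lie near or below those of all genes, and the counts of classes and lists in what follows are to be read against the same 14.5% higher and 20.5% lower at 12 h. The split depended on the centring, without which every value is lower by the subtracted medians: without it, 2 members were higher and 22 lower at 6 h and 7 higher and 38 lower at 12 h, while centring on the median gene gave 8 and 10 at 6 h and 21 and 17 at 12 h.

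The class medians ran from -0.03 to 0.61 at 6 h and from -0.29 to 1.07 at 12 h. Sec genes had a median of 0.12 at 6 h and 0.23 at 12 h, both negative without centring (-0.20 and -0.25). At 12 h, 7 of 22 Sec genes (31.8%) were at least 2-fold higher and 1 (4.55%) was 2-fold lower, against 14.5% and 20.5% of all genes. Vps genes had a median of 0.00 at 6 h and -0.29 at 12 h, with 4 of 31 (12.9%) at least 2-fold higher and 6 (19.4%) lower at 12 h, close to the shares of all genes. Rab genes had medians of -0.03 and 0.01, and 10 of 41 (24.4%) were at least 2-fold lower at 12 h, near the 20.5% of all genes, while 3 (7.32%) were higher. Snx genes had medians of 0.02 and -0.11, with 1 of 22 (4.55%) at least 2-fold higher and 5 (22.7%) lower at 12 h. The medians of the Rab, Snx and, at 6 h, Vps genes are so near 0 that their sign changed with another centring, the mean of probes or a probe minimum. The 4 Arf genes had medians of 0.34 and 0.55, and the 4 Arl genes 0.61 and 1.07. Without centring these were 0.01 and 0.07 for Arf and 0.29 and 0.60 for Arl. In each of these 2 classes 2 of 4 genes were at least 2-fold higher at 12 h. Without centring none was, where 6.91% of all genes were.

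**Figure D1:**
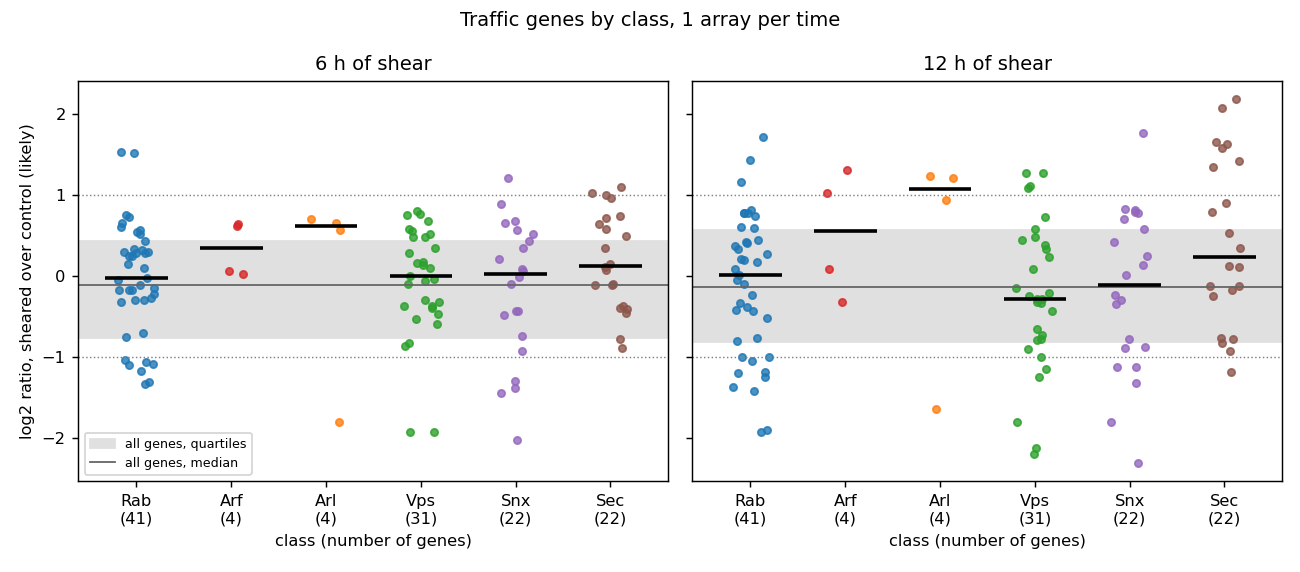
Log2 ratio (likely sheared over control) of each traffic gene by class at 6 h (left) and 12 h (right). Each point is a gene, black bars are class medians, the grey band spans the quartiles of all genes, the grey line is their median, and dotted lines mark 2-fold. Sec genes reach 2.18 at 12 h, while every class except Arf has members below -1.

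The Sec61 channel and the signal peptidase read highest of all the roles on both arrays. The 8 genes of the channel, its partners and the peptidase had a median of 0.85 at 6 h and 1.49 at 12 h, and 5 of the 8 (62.5%) were at least 2-fold higher at 12 h, or 4 without centring. Sec61g, the small gamma subunit of the channel, stood at 1.10 at 6 h (probe SD 0.30, 5 probes) and 2.18 at 12 h (probe SD 0.06), a 4.53-fold ratio. Its 5 probes ran from 0.81 to 1.58 at 6 h and from 2.09 to 2.23 at 12 h, so every probe was higher on the 12 h array than any was on the 6 h array. Sec61b, the beta subunit, stood at 0.99 and 2.07 on 1 probe. Sec61a1, which forms the pore, stood at 1.01 (probe SD 0.07, 2 probes) and 1.58 (probe SD 0.22). The channel subunits thus lay in one direction, and the second pore gene Sec61a2 was lower among them at 0.48 (probe SD 0.11, 3 probes) and 0.79 (probe SD 0.11).

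The signal peptidase catalytic subunits, which cut the signal peptide from the entering chain, followed the same direction. Sec11c stood at 0.96 (probe SD 0.27, 3 probes) and 1.63 (probe SD 0.18), and Sec11a at 0.73 (probe SD 0.28, 2 probes) and 1.41 (probe SD 0.22). The channel partners that serve post-translational import differed from each other. Sec62 stood at 0.10 (probe SD 0.30, 4 probes) and 0.34 (probe SD 0.69), with all 4 probes above 0 after centring. Without centring Sec62 stood at -0.22 and -0.14. Sec63, which recruits the lumenal chaperone BiP, stood at -0.42 (probe SD 0.26, 2 probes) and -0.79 (probe SD 0.02). Cytosolic ribosomal protein genes, as 63 genes matched by symbol, had medians of 1.17 and 2.24 on the same arrays. Their part in the channel result was not tested.

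Partners of the channel, taken from a list of genes that carry no Sec symbol, read in the same direction for most members. Of 15 measured genes of the signal recognition particle, the translocon-associated proteins and the signal peptidase, 7 (46.7%) were at least 2-fold higher and 1 (6.67%) lower at 12 h, with medians of 0.57 at 6 h and 0.91 at 12 h. Ssr4, a translocon-associated subunit, stood at 1.34 (probe SD 0.58, 5 probes) and 2.20 (probe SD 0.58). Srp14, of the signal recognition particle, stood at 0.88 (probe SD 0.22, 3 probes) and 1.82 (probe SD 0.19). Below 0 at 12 h were Srp72, of the same particle, at 0.31 (probe SD 0.18, 3 probes) and -0.24 (probe SD 0.68), and Tram2, a membrane protein near the channel linked to collagen synthesis, at -1.18 (probe SD 0.42, 2 probes) and -2.19 (probe SD 0.48).

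The COPII coat split between its subunits. Its 9 genes had a median of -0.11 at 6 h and -0.26 at 12 h, with 1 at least 2-fold higher and 1 lower at 12 h. Sec13, the small subunit of the outer cage, stood at 0.71 (probe SD 0.28, 3 probes) and 1.34 (probe SD 0.11). Its cage partner Sec31a stood at -0.11 (probe SD 0.13, 3 probes) and 0.12 (probe SD 0.10). At 12 h the lowest probe of Sec13 was 1.25 and the highest of Sec31a 0.19. The 3 cargo adaptors read lower: Sec24a stood at -0.41 and -0.93 (probe SD 0.85, 2 probes), Sec24c at -0.37 and -0.84 (probe SD 0.26, 2 probes) and Sec24d at -0.11 and -0.78 (probe SD 0.04, 2 probes). Sec16a, the scaffold of the exit site, stood at -0.90 and -1.20 on 1 probe. The Sec23 genes had probes on both sides of 0, with Sec23a at 0.52 (probe SD 1.33) and Sec23b at -0.26 (probe SD 0.75) at 12 h.

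Other genes of the ER exit sites and of the COPI coat, both from lists, lay mostly above 0 after centring. Of 16 genes for SAR1, cargo receptors and exit sites, 8 (50%) reached 2-fold higher and none 2-fold lower at 12 h, with medians of 0.40 and 0.96. The cargo receptor subunit Mcfd2 stood at 0.80 (probe SD 0.08, 3 probes) and 1.86 (probe SD 0.22), and Ergic3 at 0.88 and 1.54. The lowest were Tfg, at 0.15 and 0.14, and Mia3, which packs collagen for export, at 0.33 (probe SD 1.37, 2 probes) and -0.21 (probe SD 0.59). Of the 9 COPI subunits 3 (33.3%) reached 2-fold higher and none 2-fold lower at 12 h, with medians of 0.31 and 0.46, which were -0.01 and -0.02 without centring. Cope, the epsilon subunit, stood at 0.84 (probe SD 0.52, 3 probes) and 1.88 (probe SD 0.85), against 0.31 and -0.38 for the beta subunit Copb1 (probe SD 0.05 at 12 h, 2 probes). Copa stood at 0.52 and 1.10 (probe SD 1.56, 2 probes) and Copg2 at -0.06 and -0.25 (probe SD 1.18, 4 probes). The SNARE Sec22b, which fuses vesicles between the ER and the Golgi, stood at 0.58 and 0.89 (probe SD 0.20, 2 probes), and its relative Sec22a at 0.14 and -0.13 (probe SD 0.26, 2 probes). The 3 genes with a Sec14-like name bind lipids and belong to no coat. Of these, Sec14l3 stood at 0.63 and 1.64 and Sec14l2 at -0.12 and 0.11 on 1 probe each, and Sec14l4 at -0.78 (probe SD 0.43, 2 probes) and -0.18 (probe SD 1.36).

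**Figure D2:**
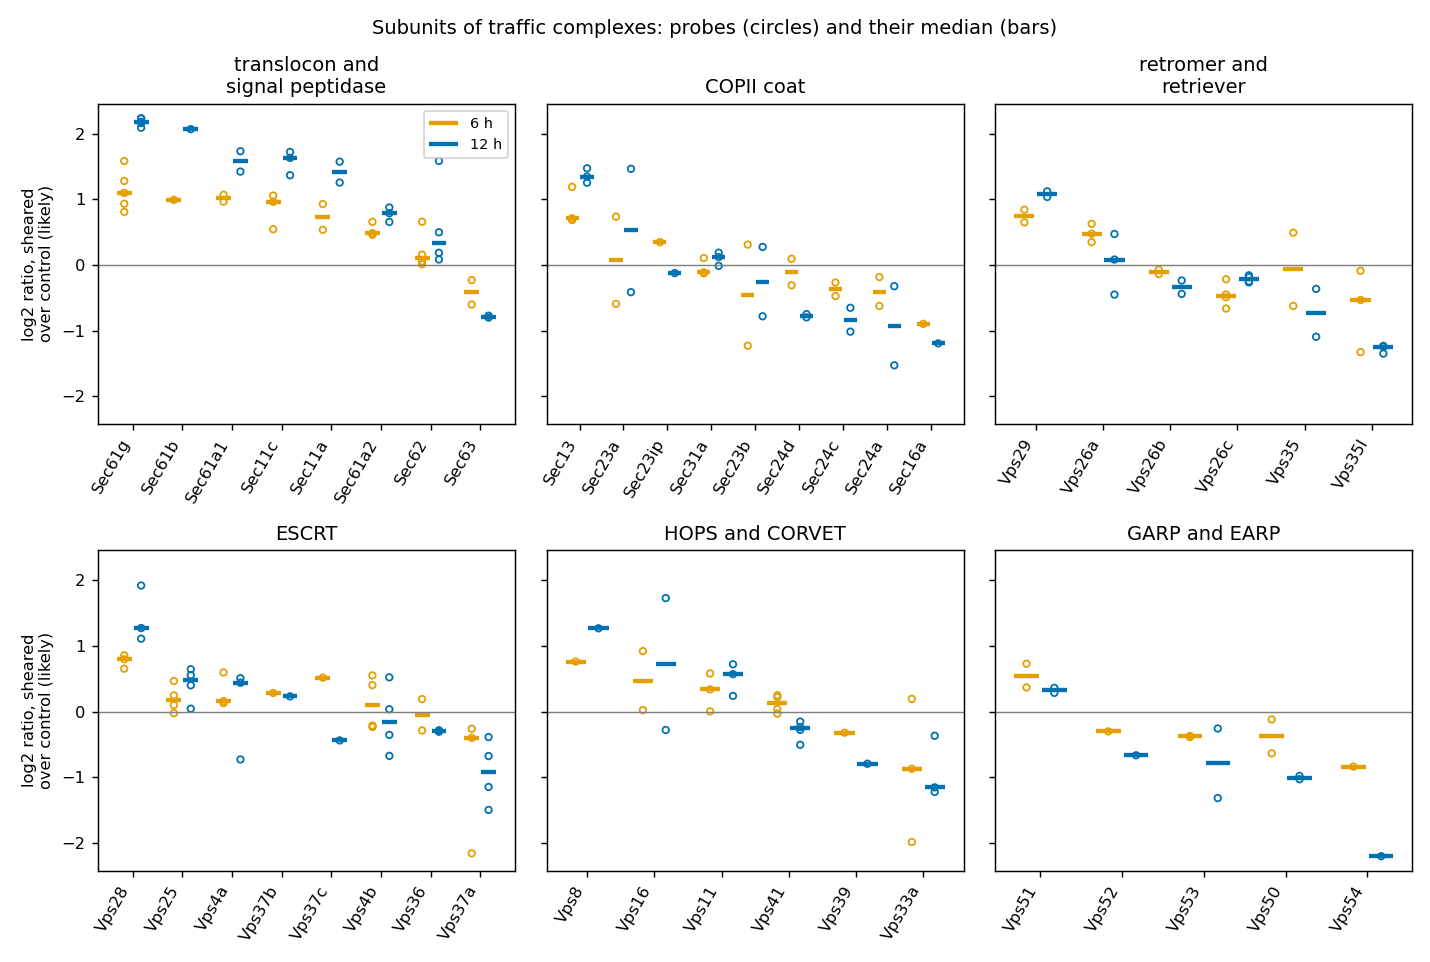
Log2 ratio (likely sheared over control) of the subunits of 6 traffic complexes, with each probe as a circle and the gene's median as a bar, at 6 h (orange) and 12 h (blue). Sec61g, Sec13, Vps29 and Vps28 lie above 0 with all probes at both times, while Sec63, Sec16a, Vps35l and Vps37a have medians below 0 at both times.

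Among the Arf GTPases, Arf4 and Arf5 read higher at 12 h and Arf2 and Arf3 did not. Arf4, which acts at the Golgi, stood at 0.62 (probe SD 0.19, 2 probes) and 1.30 (probe SD 0.42), and Arf5 at 0.64 and 1.02 on 1 probe. Arf2 stood at 0.02 and 0.08 (probe SD 0.77, 2 probes) and Arf3 at 0.06 and -0.33 on 1 probe. Arf1, the main recruiter of coats at the Golgi, was not a member, because its 8 probes also carry the symbol Tmem214. These probes had a median of 0.60 at 6 h and 1.02 at 12 h, and ran from -0.46 to 0.76 at 6 h and from 0.72 to 1.38 at 12 h. Arf transcripts are similar in sequence and may share signal.

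Of the 4 Arf-like genes, Arl1, Arl2 and Arl3 read higher and Arl14 lower. Arl1, which brings golgin tethers to the trans-Golgi, stood at 0.69 (probe SD 0.14, 3 probes) and 0.94 (probe SD 0.12). Arl2, which acts in tubulin folding, stood at 0.56 (probe SD 0.33, 3 probes) and 1.23 (probe SD 0.15), and Arl3, which releases lipidated cargo in cilia, at 0.65 (probe SD 0.17, 2 probes) and 1.21 (probe SD 0.01). After centring, all probes of these 3 genes lay above 0 on both arrays. Arl14 stood at -1.81 and -1.65 on 1 probe.

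The Rab GTPases of the early secretory pathway and the early endosome lay mostly above 0 after centring, and not without it. The 9 genes of ER-to-Golgi and Golgi traffic had medians of 0.24 and 0.33, with 6 above 0 at 6 h and 7 at 12 h. Without centring the medians were -0.08 and -0.15, with 1 and 3 of the 9 above 0. Rab1a and Rab1b, which tether vesicles arriving from the ER, stood at 0.28 and 0.24 at 6 h and at 0.33 and 0.77 at 12 h, with 2 probes each. Rab2a, which acts between the ER and Golgi, stood at 0.60 on both arrays (probe SD 0.35 and 0.28, 5 probes), and Rab2b at 0.14 and 0.41 on 1 probe. The ends of this group were Rab34 at 0.29 and 1.43 and the Golgi Rab30 at -1.32 and -1.91, each on 1 probe.

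The 8 Rab genes grouped as early endosomal had medians of 0.36 and 0.50 and 6 genes above 0 each time, against 4 without centring, where the medians were 0.03 and 0.02. Rab5a, which drives fusion of early endosomes, stood at 0.53 (probe SD 0.23, 3 probes) and 0.41 (probe SD 0.37), while its relative Rab5c stood at -0.23 (probe SD 0.64, 2 probes) and 0.81 (probe SD 0.33). Rab4b and Rab4a, of the rapid recycling route, stood at 0.75 and 0.29 at 6 h and at 1.16 and 0.73 at 12 h. Rab22a stood at -0.70 (probe SD 1.20, 2 probes) and -1.002 (probe SD 0.07). The remaining early endosomal genes Rab20, Rab21 and Rab24 ran from 0.24 to 0.73 at 6 h and from -1.002 to 0.59 at 12 h.

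The Rab genes of recycling, and above all those of regulated secretion, had lower medians. The 11 recycling and post-Golgi genes had medians of -0.15 and -0.44, the latter being the value of Rab35 on 1 probe. At 12 h none was at least 2-fold higher and 2 (18.2%) were lower, where 14.5% and 20.5% of all genes were. The share lower is thus near that of all genes. Rab11a, the main GTPase of the recycling endosome, stood at -0.18 (probe SD 0.70, 7 probes) and -0.78 (probe SD 0.86), with probes on both sides of 0. Rab11b stood at -0.15 (probe SD 0.50, 5 probes) and 0.20 (probe SD 0.31). Rab15 and Rab17, at -1.04 and -1.10 at 6 h and -1.06 and -1.37 at 12 h, rested on 1 probe each.

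All 6 Rab genes of secretory granules, which serve regulated exocytosis, were below 0 on both arrays, with medians of -0.31 and -0.79. Of these, Rab3b stood at -1.34 (probe SD 1.20, 2 probes) and -1.21 (probe SD 0.24) and Rab27b at -1.07 and -1.43 on 1 probe. Rab27a stood at -0.30 (probe SD 0.18, 3 probes) and -0.39 (probe SD 0.31), with all 3 probes below 0 at both times. Rab3c stood at -0.32 and -1.19 on 1 probe. Rab3a and Rab3d were nearest to 0 at 12 h, at -0.24 (probe SD 0.85, 3 probes) and -0.10 (probe SD 0.80, 4 probes). With the mean of probes Rab3a turned to 0.22, and centred on genes Rab3d turned to 0.04. Over all genes 4753 of 10733 were above 0 at 12 h.

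Late endosomal and lysosomal Rab genes were split. Rab7, which brings late endosomes to lysosomes, stood at 0.51 (probe SD 0.26, 2 probes) and 0.77 (probe SD 0.46). Rab9, of the return route to the Golgi, stood at 0.56 (probe SD 0.27, 3 probes) and 0.08 (probe SD 0.33), and Rab29 at 0.33 and 0.44 on 2 probes. Rab32 and Rab38, known from melanosome formation, stood at -0.18 and -0.76 at 6 h and at -0.42 and -1.94 at 12 h, each on 1 probe. Outside these groups, Rab40c, which joins a ubiquitin ligase, stood at 1.52 and 1.71, and Rab23, a regulator of hedgehog signalling, at -1.18 and -1.26, each on 1 probe.

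Within each of the endosomal Vps complexes, subunits lay on both sides of 0 at 12 h after centring. Vps29, the smallest retromer subunit, stood at 0.74 (probe SD 0.14, 2 probes) and 1.08 (probe SD 0.06). Its partner Vps35, the retromer backbone, stood at -0.07 (probe SD 0.79, 2 probes) and -0.73 (probe SD 0.52), and Vps26a at 0.48 (probe SD 0.14, 3 probes) and 0.08 (probe SD 0.46). Vps26b, which can replace Vps26a, stood at -0.11 and -0.34 (probe SD 0.14, 2 probes). At 12 h the lowest probe of Vps29, 1.03, lay above the highest of Vps26a, 0.47, and of Vps35, -0.37. The retriever complex also uses Vps29, and its other subunits Vps35l and Vps26c stood at -1.25 (probe SD 0.06, 3 probes) and -0.22 (probe SD 0.05, 4 probes) at 12 h. Their values at 6 h were -0.53 (probe SD 0.63) and -0.47 (probe SD 0.18).

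ESCRT genes, which sort ubiquitinated cargo into vesicles of the late endosome, had medians of 0.17 and 0.04 over 8 genes. Vps28, of ESCRT-I, stood at 0.80 (probe SD 0.10, 3 probes) and 1.27 (probe SD 0.43), while its partner Vps37a stood at -0.40 (probe SD 1.06, 3 probes) and -0.91 (probe SD 0.49, 4 probes). The ATPases Vps4a and Vps4b, which take the polymer apart, stood at 0.44 (probe SD 0.70) and -0.16 (probe SD 0.52) at 12 h. Vps37b and Vps37c stood at 0.23 and -0.44 at 12 h on 1 probe each, and the ESCRT-II subunits Vps25 and Vps36 at 0.48 (probe SD 0.26) and -0.30 (probe SD 0.02). ESCRT genes without a Vps symbol had medians of 0.26 and 0.46 over 16 genes; at 12 h, 6 of them (37.5%) were higher and 2 (12.5%) lower by at least 2-fold, and without centring 0 and 2. Tsg101, which binds Vps28, stood at 0.45 (probe SD 0.32, 3 probes) and 1.23 (probe SD 0.11). Mvb12a, of ESCRT-I, stood at 1.14 and 1.26, its relative Mvb12b at -3.36 and -1.35, and Stam2, of ESCRT-0, at -0.49 and -1.21, each on 1 probe.

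The tethers of lysosomal and Golgi fusion read from high to low within a complex. In HOPS and CORVET, the CORVET subunit Vps8 stood at 0.76 and 1.27 on 1 probe, while the shared subunit Vps33a stood at -0.87 (probe SD 1.09, 3 probes) and -1.15 (probe SD 0.48). Vps16, which binds Vps33a, stood at 0.47 and 0.72 with a probe SD of 1.42 at 12 h. The shared subunit Vps11 stood at 0.57 (probe SD 0.25) at 12 h, and the HOPS subunits Vps41 and Vps39 at -0.26 (probe SD 0.15) and -0.79, the last on 1 probe. The 5 genes of GARP and EARP, which tether vesicles from endosomes, had medians of -0.38 and -0.79. Vps54, particular to GARP, stood at -0.84 and -2.20 on 1 probe, and Vps50, particular to EARP, at -0.38 (probe SD 0.37, 2 probes) and -1.004 (probe SD 0.04). Vps52 and Vps53, shared by both, stood at -0.67 on 1 probe and at -0.79 (probe SD 0.75, 2 probes) at 12 h. Vps51, also shared, was the only one of the 5 above 0, at 0.55 (probe SD 0.26, 2 probes) and 0.32 (probe SD 0.05), and at -0.16 at 12 h without centring.

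By the mean of both arrays, the lowest Vps genes were a pair of the VPS13 lipid transfer proteins. Vps13b stood at -1.93 at 6 h, with probes at -2.24, -1.93 and -1.18, and at -1.81 at 12 h, with probes at -2.72, -1.81 and -1.32. Vps13d stood at -1.93 and -2.13 on 1 probe. All Vps13b probes were thus lower than 2-fold on both arrays, but Vps13a stood at 0.58 and -0.32 on 1 probe. Vps72, a chromatin protein that carries the name without a role in traffic, stood at 0.67 and 1.10. Of the remaining Vps genes, Vps45, which binds SNAREs, stood at -0.005 and -0.29 (probe SD 0.36, 2 probes), and Vps9d1 at -0.59 and 0.38 on 1 probe.

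Sorting nexins spread about 0. By the mean of both arrays Snx22 read highest, at 0.89 (probe SD 0.31, 2 probes) and 1.76 (probe SD 0.17). Snx12, the highest at 6 h, stood at 1.21 and 0.81 on 1 probe. Snx5, a partner in retrieval to the Golgi, stood at 0.68 (probe SD 0.53, 7 probes) and 0.79 (probe SD 0.68), and Snx3, which works with retromer, at 0.42 (probe SD 0.17, 3 probes) and 0.82 (probe SD 0.13). The lowest were Snx13 at -2.03 (probe SD 1.27, 2 probes) and -1.81 (probe SD 0.41), Snx24 at -1.39 and -2.32 and Snx27, which returns receptors to the surface with retromer, at -1.46 and -1.33, the last 2 on 1 probe each.

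On both arrays, 3 members (2.42%) were higher and 12 (9.68%) lower by at least 2-fold, where 4.34% and 9.8% of all genes were. The higher genes were Sec61g, Sec61a1 and Rab40c. The lower ones were Rab3b, Rab15, Rab17, Rab23, Rab27b, Rab30, Arl14, Snx13, Snx24, Snx27, Vps13b and Vps13d. Of these 12, 9 rested on 1 probe, and Rab3b, Snx13 and Vps13b on several. Members on 1 probe were lower more often: 16 of 44 (36.4%) were at least 2-fold lower at 12 h against 7 of 80 (8.75%) with several probes, and among the other genes the shares were 24.7% and 16.7%.

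The members' values at the 2 times ran together, with a Pearson r of 0.828 and a Spearman rho of 0.833 across 124 genes. Across 10164 other genes they were 0.661 and 0.736. The 2 sets differ in probe number: at 6 h, 81 of 124 members had several probes, against 5315 of 10224 other genes. Across the 80 members with several probes r was 0.859. For other genes with several probes, neither r nor the share on the same side of 0 on both arrays was computed. The genes share the 2 arrays and are not independent replicates. Of the members, 107 (86.3%) lay on the same side of 0 on both arrays and 91 of 124 lay farther from 0 at 12 h than at 6 h. Over all genes on both arrays, 80.5% lay on the same side and 6267 of 10288 farther from 0. All genes spread more widely on the 12 h array, with quartiles of -0.83 and 0.57 against -0.77 and 0.43 at 6 h. The part of this spread in the counts was not tested. The median difference of 12 h minus 6 h was 0.06, or -0.10 without centring, against 0.12 over all genes.

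As labelled, the 2 arrays differ also in the pooling of cells, the control and the stated shear setting. Time cannot be told apart from these or from the array itself. The widest upward differences between times were 1.15 for Rab34, 1.08 for Sec61g, 1.08 for Sec61b, 1.03 for Rab5c and 1.01 for Sec14l3. The widest downward ones were -1.95 for Rab35, -1.73 for Rab20, -1.36 for Vps54, -1.18 for Rab38 and -0.96 for Vps37c. Rab35, of the fast recycling route, had probes at 0.77 and 2.25 at 6 h, of which the second was missing at 12 h and the first stood at -0.44. Its difference thus sets the median of 2 probes against 1 probe. The probe measured on both arrays fell by less than Rab20 or Vps54. Rab20 stood at 0.73 and -1.002 on 1 probe and was the only member at least 1.5-fold away on opposite sides, as were 1.32% of all genes. Except for Sec61g and Rab5c, these 10 differences rest on 1 probe on at least 1 array.

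**Figure D3:**
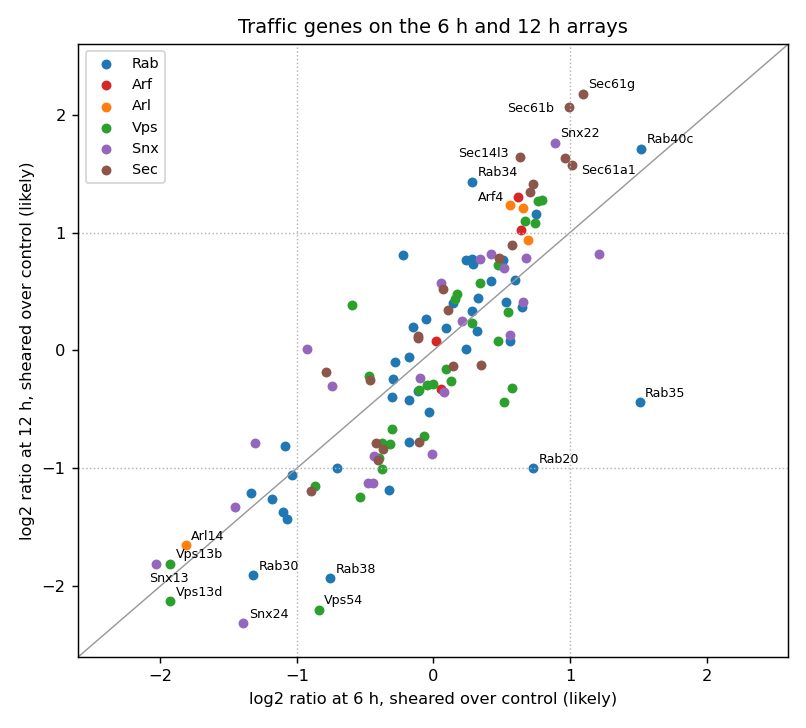
Log2 ratio (likely sheared over control) of the 124 traffic genes at 6 h (horizontal) and 12 h (vertical), coloured by class; the diagonal marks equal values and dotted lines 2-fold. Sec61g and Sec61b lie at the upper right, Vps13d and Snx24 at the lower left, and Rab35 and Rab20 far below the diagonal.

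Paralogues that differ in the last letter of the symbol were compared within their sets. In 15 such sets with 36 genes, the highest and lowest member were at least 1 log2 apart in 2 sets at 6 h and in 5 sets at 12 h. The range was below the SD between probes pooled over all genes in 9 of the 15 sets at each time. That SD, 0.738 and 0.855, is larger than the 0.598 and 0.535 of the members alone. The spread of unrelated genes was not computed, so whether paralogues lie closer than other genes was not tested. The widest set was Vps13, with a range of 2.50 at 6 h and 1.81 at 12 h. At 12 h the Vps37 set spanned 1.14, Rab3 1.10, Rab27 1.03 and Sec22 1.02. The medians of the Sec24 adaptors spanned 0.15 at 12 h, those of Rab2 0.19 and those of Sec11 0.22. The 2 probes of Sec24a alone stood at -1.53 and -0.325 at 12 h. Paralogue probes may share signal where transcripts are similar.

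**Figure D4:**
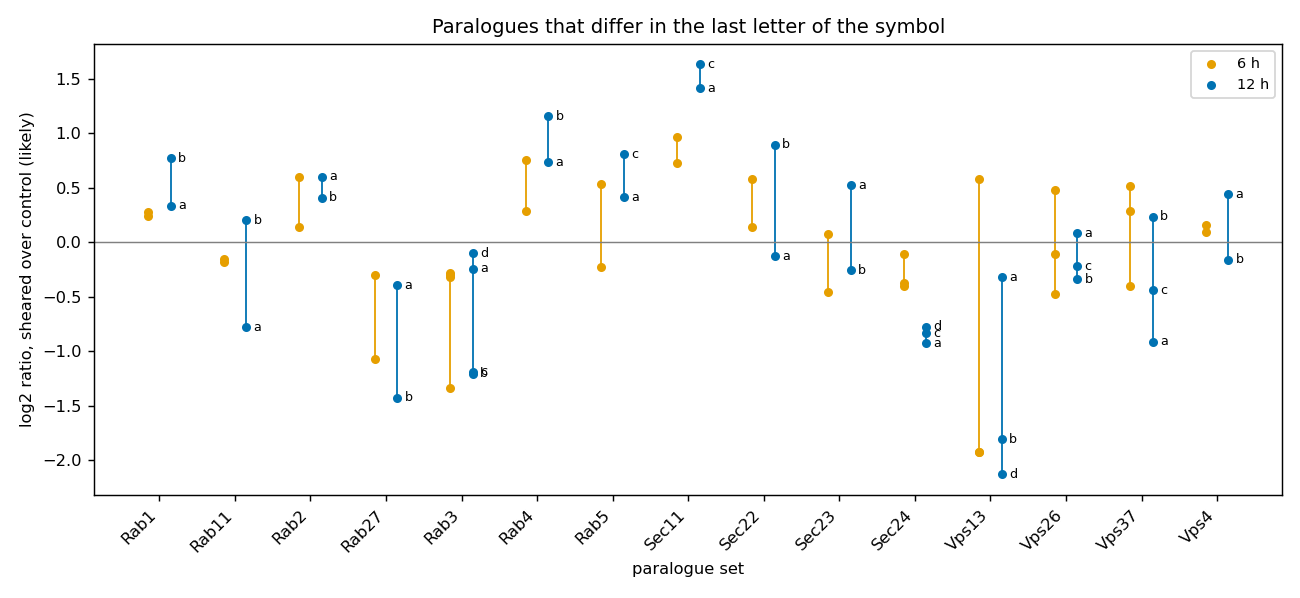
Log2 ratio (likely sheared over control) of the genes of 15 paralogue sets at 6 h (orange) and 12 h (blue), with a line over the range of each set and the last letter of each symbol beside its 12 h value. The Vps13 set is the widest, and the Sec11 and Sec24 sets lie close together on opposite sides of 0.

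The ratio ran with the genomic span of the gene, a property that the choice by name did not use. The span, from start to end in the RefSeq table of GRCm38.p6, was known for all 124 members. Spearman's rho between span and log2 ratio across members was -0.364 at 6 h and -0.486 at 12 h, against -0.314 and -0.374 across the other genes. The 41 members of 1.2 to 18.003 kb had a median of 0.48 at 12 h, with 14 at least 2-fold higher and 3 lower. The 42 members of 40.0 to 560.1 kb had a median of -0.78, with 2 higher and 16 lower. Other genes of the same span classes had medians of 0.22 and -0.69 at 12 h, on the same sides of 0 as the members. How many of those other genes passed 2-fold was not counted, so the member counts do not set the traffic genes apart from genes of like span.

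The relation was present within the larger classes at 12 h, with a rho of -0.699 over 22 Sec genes, -0.644 over 31 Vps genes, -0.444 over 22 Snx genes and -0.373 over 41 Rab genes. Vps13b is the longest member at 560.1 kb, and Vps13d, at 324.0 kb, comes after Snx29 at 436.2 kb. Exceptions were Vps8 at 221.6 kb with a ratio of 1.27 and Arl14 at 1.2 kb with -1.65, each on 1 probe. Transcript length, expression level and spot brightness were not measured here, so their part in the relation was not tested.

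**Figure D5:**
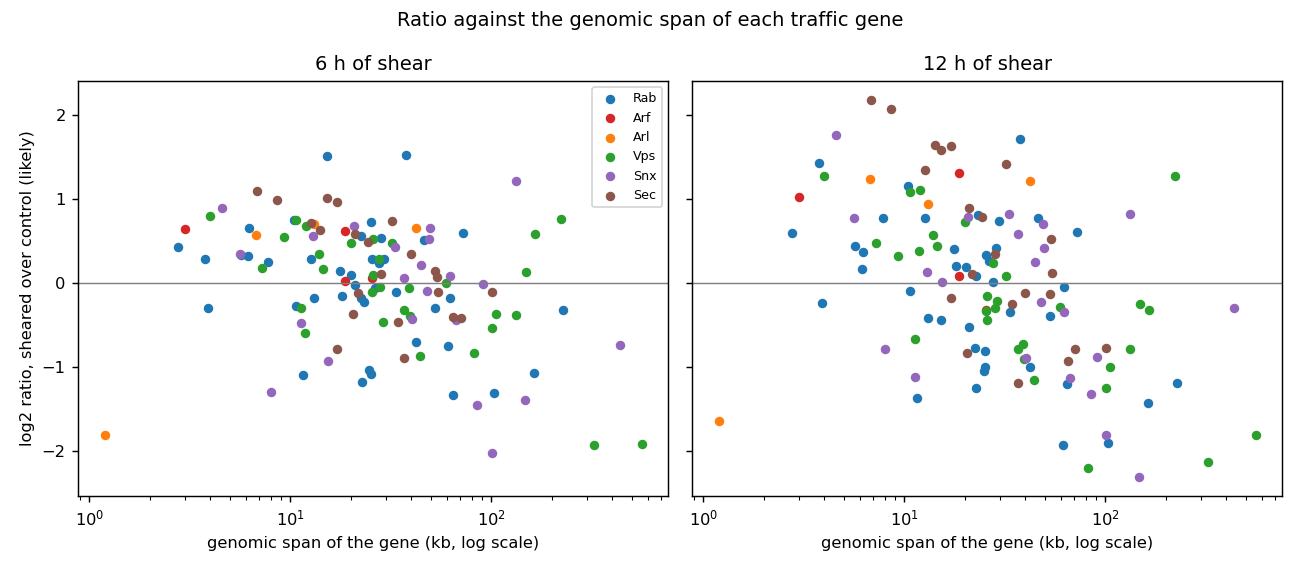
Log2 ratio (likely sheared over control) of each traffic gene against its genomic span in kb on a log axis, at 6 h (left) and 12 h (right), coloured by class. At 12 h most genes of at least 40.0 kb lie below 0, and Vps13b at 560.1 kb stands at -1.81.

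Promoters from RefSeq (GRCm38.p6), running from 250 bases before to 50 bases after the gene start, were found for 98 of the 124 members. The 10-base palindrome of the CLEAR element, known from genes of lysosomes and endosomes that the factor TFEB controls, was present in 7 of the 98 (7.14%) and in 58 of 8618 other genes of the arrays (0.673%). Over all 27025 genes of the table the share was 0.37%. It contains the shorter E-box CACGTG, which 17 members (17.3%) and 11.2% of the other array genes held. Both strands were searched. The windows below are shown because these 7 genes share the motif; each has 60 bases in its gene's direction, with the palindrome in capitals, and Vps26a has 2 starts that both carry it.

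Arl2 (chr19:6141173-6141232, minus strand): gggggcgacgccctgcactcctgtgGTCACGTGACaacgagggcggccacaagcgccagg
Rab5a (chr17:53479112-53479171, plus strand): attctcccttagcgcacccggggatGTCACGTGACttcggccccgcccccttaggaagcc
Rab21 (chr10:115315589-115315648, minus strand): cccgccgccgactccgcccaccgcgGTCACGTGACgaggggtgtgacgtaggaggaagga
Rab24 (chr13:55321946-55322005, minus strand): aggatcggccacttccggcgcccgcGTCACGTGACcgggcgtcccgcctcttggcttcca
Vps16 (chr2:130424275-130424334, plus strand): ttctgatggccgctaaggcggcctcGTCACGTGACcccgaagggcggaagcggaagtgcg
Vps26a, first start (chr10:62486955-62487014, minus strand): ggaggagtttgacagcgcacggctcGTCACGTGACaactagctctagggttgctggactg
Vps26a, second start (chr10:62486717-62486776, minus strand): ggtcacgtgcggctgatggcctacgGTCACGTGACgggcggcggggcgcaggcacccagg
Vps33a (chr5:123572995-123573054, minus strand): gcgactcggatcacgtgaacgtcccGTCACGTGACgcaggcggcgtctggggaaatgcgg

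Of these 7 genes, 6 lay above 0 on both arrays and Vps33a below. Without centring 5 of the 7 were above 0 at 6 h and 3 at 12 h, and with each print block centred 6 and 4 were. Their median was 0.47 at 6 h and 0.41 at 12 h, against 0.07 and -0.13 for the 91 members whose promoters lack the palindrome. At 12 h 1 of the 7, Arl2, was at least 2-fold higher and 1, Vps33a, at least 2-fold lower. Other motifs were searched in the same windows. The UPR motif TGACGTGG was in the promoters of Sec23a and Sec24d, or 2.04% of members against 1.18% of other array genes. The ER stress element ERSE was in none of the 98, against 0.22%. The ETS motif CCGGAAG was in 20.4% against 18.3%, and CCAAT in 40.8% against 43.1%. A match describes these letters and is not a site of binding.

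The regulators of the GTPases read lower than the GTPases themselves in these medians. Many of the regulators rested on 1 probe. Across the genes that are not members, the 12 h median was -0.31 on 1 probe and 0.02 on several. Whether the contrast holds among regulators with several probes was not tested, and the Arf regulators are set against only 4 Arf genes. Rab regulators and effectors had medians of -0.34 and -0.46 over 26 genes, with 2 (7.69%) at least 2-fold higher and 9 (34.6%) lower at 12 h, against 14.5% and 20.5% of all genes. Rabggta, a subunit of the enzyme that attaches the lipid anchor to Rab proteins, stood at 1.37 (probe SD 0.21, 3 probes) and 3.45 (probe SD 0.97). The Rab chaperone-like factor Rabif stood at -4.28 and -1.49 on 1 probe. Rabac1, a Rab-binding membrane protein, stood at 0.39 (probe SD 0.36, 3 probes) and 1.65 (probe SD 0.14), and Dennd2a, of a family of Rab exchange factors, at -2.87 and -2.57 on 1 probe. Arf regulators and effectors had medians of -0.45 over 20 genes at 6 h and -0.51 over 21 genes at 12 h, with none at least 2-fold higher and 5 (23.8%) lower at 12 h. Cyth3, an exchange factor for Arf6, stood at -1.90 (probe SD 0.37, 2 probes) and -1.96 (probe SD 0.99), and the exchange factor Iqsec1 at -1.74 and -2.602 on 1 probe. The highest were Arfip2, at 0.73 (probe SD 0.30, 3 probes) and 0.90 (probe SD 0.14), and Cyth1, at 0.64 and 0.95 on 1 probe.

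The remaining machinery was centred near 0. Clathrin and adaptor genes had medians of 0.06 over 26 genes and -0.18 over 27, with 2 (7.41%) at least 2-fold higher and 6 (22.2%) lower at 12 h. Ap2m1, the cargo-binding subunit of the plasma membrane adaptor, stood at 0.70 (probe SD 0.08, 3 probes) and 1.66 (probe SD 0.34), and Ap1g1, of the Golgi adaptor, at -1.46 (probe SD 0.59, 3 probes) and -2.16 (probe SD 0.74). The clathrin light chain Cltb stood at 0.82 and 1.21 (probe SD 0.09, 2 probes) and Ap2b1 at -1.72 and -1.42 on 1 probe. SNAREs and their recycling factors had medians of 0.07 and -0.11 over 35 genes, with 6 (17.1%) higher and 4 (11.4%) lower at 12 h. Among them Vamp8 stood at 0.98 (probe SD 0.21, 3 probes) and 1.89 (probe SD 0.28), and Stx17 at -1.10 (probe SD 0.19, 3 probes) and -1.87 (probe SD 0.87). Scfd1, which binds the Golgi syntaxin, stood at 0.54 and 2.15 on 1 probe, and Snap25 at -1.77 (probe SD 0.02, 2 probes) and -0.64 (probe SD 0.12). The exocyst, TRAPP and Golgi tethers had medians of 0.02 over 22 genes and -0.24 over 24, with 4 (16.7%) higher and 3 (12.5%) lower at 12 h. The TRAPP subunit Trappc2l stood at 0.67 (probe SD 0.25, 3 probes) and 1.95 (probe SD 0.07), and Cog5 at -0.73 (probe SD 0.65, 2 probes) and -1.50 (probe SD 1.001). Trappc4 stood at 1.05 and 1.22 and Trappc10 at -0.997 and -0.90, on 1 probe each.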

How the data were processed

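The deposited table holds 1 value per spot and array, 42624 spots in all, of which 39776 were measured at 6 h and 41717 at 12 h. Because values run below 0, the deposited numbers are read as log2 ratios (-8.48 to 5.48); the base is an assumption. The authors' scanner, background correction, spot filter and normalization are not given in the sources used here. Per the labels, Cy3 carried control and Cy5 sheared RNA. Brightness was not used here, so the depth of the measurement is unknown.

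The median of all spots was subtracted from each array. A gene's value is the middle of its probes, counting those given a single symbol in GEO's platform annotation (21703 spots; 1122 had several symbols and 19799 none). All 124 member symbols matched RefSeq (GRCm38.p6) by gene ID. A gene counted as higher or lower from 2-fold. With 1 array per time no test was run, and counts are read against the shares over all genes. The members, roles and gene lists were chosen with earlier results of these data known. Genes were named by a written rule: those past 2-fold on both arrays with all probes on one side of 0, the 3 highest and 3 lowest of each class, the 5 widest differences between times in each direction, the ends of paralogue sets, all genes of roles with up to 8 members, and the 2 highest and 2 lowest of each partner list; a few further genes were named after their values were seen. The summaries were run on simulated probes with known gene values and random noise of the pooled SD between probes. That run checks the calculation only, and the share of unchanged genes it put past 2-fold is not reported here. Python 3.11.15, numpy 2.4.6, pandas 2.3.3 and matplotlib 3.10.9 were used.

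Alternatives were no centring, the mean of probes, 2 or more probes, keeping probes of several symbols, genes on both arrays, a common scale for both arrays, centring of the 48 print blocks of 900 spot numbers, centring on genes, thresholds of 1.5-fold and 3-fold, and another correlation measure. Markers of leukocytes (7 of 10 measured, -5.42 to 0.80 at 6 h and -2.31 to 1.70 at 12 h), endothelium (6 of 9, -2.03 to 1.76 and -1.40 to -0.07) and skeletal muscle (6 of 10, -1.33 to 0.58 and -0.95 to 0.49) were read as ratios, with no level.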

Additional observations from a re-analysis of the deposited data

Results flagged for a closer look

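Rab20, a GTPase of endosomes and phagosomes, stood on opposite sides at the 2 times, with a log2 ratio of 0.729 at 6 h and -1.002 at 12 h. It was picked out because each value was at least 1.5-fold away from 0 in the opposite direction. Each rests on 1 probe and 1 array, and the difference was not tested.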

How the results depend on the processing

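The counts of members past the threshold moved with the settings. At 6 h, where 5 were higher and 14 lower, the counts were 2 and 22 without centring, 3 and 4 over the 81 genes with 2 or more probes, 25 and 23 at 1.5-fold, and 0 and 4 at 3-fold; centring on genes gave 8 higher. At 12 h, where 19 were higher and 23 lower, they were 7 and 38 without centring, 11 and 7 over the 80 genes with 2 or more probes, 35 and 37 at 1.5-fold, and 6 and 8 at 3-fold. The 2 correlations with gene span, an analysis added after the data were seen, were -0.50 at 6 h and -0.61 at 12 h with 2 or more probes. The cause was not tested, apart from the fewer genes of that setting. Without centring the median of all genes moved to -0.44 at 6 h and -0.62 at 12 h. All other values of medians, correlations and counts, 152 in number, moved by less than the SD between probes, 0.1 in a correlation or 1.5 times in a count. For the class medians without centring this limit decides nothing, because the subtracted medians are smaller than that SD. In that setting the median of all members turned to -0.25 at 6 h and -0.47 at 12 h. That of the Sec genes turned to -0.20 and -0.25. No named gene past 2-fold turned its sign, and leaving out the centring could not turn one, as its shift is below 2-fold. A planned correlation with protein length was not run, because no protein table was used here. No paired analysis was possible because each time has 1 array.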
